A study of Canis lupus familiaris with 6 samples.

Results

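BASP1, GAP43, MARCKS and MARCKSL1 encode a family of acidic proteins that lie on the inner face of the plasma membrane. These 4 genes were chosen by name, with their values in the comparison of mix culture against single culture already known. A probe was assigned to a gene when the gene name column of the array design gave its symbol, or when the probe description carried the symbol in brackets. This rule found 5 of the 43603 non-control probes and covered 3 of the 4 genes, with 2 probes for BASP1, 2 for GAP43 and 1 for MARCKSL1. It found no probe for MARCKS. One further probe carried an identifier only and was described as the bovine myristoylated alanine-rich C kinase substrate, which is the full name of MARCKS. It was added after its values were seen and is called here the MARCKS-described probe.

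The samples were 6 cultures of MDCK cells, an epithelial line from dog kidney, profiled on single-colour Agilent canine arrays. All 6 carried mCherry-β-catenin Δ131, a stabilised β-catenin that lacks its N-terminus, and GFP-RasV12, an active Ras oncoprotein that tetracycline induces. These β-cat ΔN/RasV12 cells were grown alone in the 3 single cultures, and among 10 β-cat ΔN cells for each of them in the 3 mix cultures. After 24 h of tetracycline, GFP-positive cells of both groups were separated by flow cytometry and their RNA was labelled with Cy3. β-catenin Δ131 was expressed constitutively in every sample, so neither group held cells with the normal Wnt pathway alone. No source states that the replicates came from separate cultures, so the tests measure only the spread between these samples. In bulk RNA, fewer cells that express a gene and less RNA per cell cannot be told apart.

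Proteins of this family are largely unfolded and are held at the membrane by a fatty acid at their N-terminus. BASP1, MARCKS and MARCKSL1 carry myristate, whereas GAP43 carries palmitate. A short basic stretch binds the lipid PIP2 and calmodulin, and phosphorylation by protein kinase C weakens its hold on the membrane. The family is best known from nerve growth cones, where its members act on the cortical actin cytoskeleton, but MARCKS and MARCKSL1 are also made in many epithelia. BASP1 has a second role in the nucleus, where it joins the transcription factor WT1 as a corepressor.

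The probe sequences are shown because they define which transcripts the signals report. All positions are those of the array design on CanFam3.1, and each sequence is given 5′ to 3′ along the transcript. No annotation of exons or UTRs was used here. For the probes that may lie outside the coding sequence only the first 30 bases are printed.
BASP1, probe 1 (A_11_P130296, chr4:86360844-86360903, minus strand): ttaatgcatgtccgtggttgggtgcacctg
BASP1, probe 2 (A_11_P192703, chr4:86360751-86360810, minus strand): agttccggtttctcttccattctgtgtcac
GAP43, probe 1 (A_11_P0000023722, chr33:19724637-19769852, plus strand): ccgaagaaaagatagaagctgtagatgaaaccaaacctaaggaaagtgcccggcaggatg
GAP43, probe 2 (A_11_P120981, chr33:19770447-19770506, plus strand): gtaacttgcggctctaaggctcctttttca
MARCKSL1 (A_11_P103031, chr2:68900889-68900948, plus strand): tccagcttgtgaatcgactgtgtctctttt
MARCKS-described probe (A_11_P210568, chr12:69980811-69980870, plus strand): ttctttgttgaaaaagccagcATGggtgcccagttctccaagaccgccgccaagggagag

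Every probe was 60 bases long and was printed once on the array. The BASP1 probes lay 33 bases apart on 1 strand and shared no base, so they were separate reporters of neighbouring sequence. Probe 1 of GAP43 spanned 45216 bases of the genome, so its sequence crosses at least 1 exon junction, and 1 of its 3 forward reading frames held no stop codon. Probe 2 of GAP43, BASP1 probe 1 and the MARCKSL1 probe held a stop codon in all 3 forward frames, and BASP1 probe 2 held none in any. In the MARCKS-described probe the capitals mark its first ATG, which followed 21 bases and opened a frame that ran without a stop to the end of the probe. GC content lay between 35.0% and 55.0%, and was 45.0% for both BASP1 probes.

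Signals are background-subtracted intensities. For comparison between arrays, log2 of each signal was taken and the 75th percentile of its array was subtracted, so that a normalised log2 signal of 0 equals that percentile. The scanner software called 61.1% to 65.7% of the spots of an array well above background, a stricter call than a signal above 0. The lowest signal with this call was 4.19 to 4.48 units, depending on the array. Replicate 1 of each group lay on 1 slide (slide 1), and replicates 2 and 3 of each group lay on another (slide 2). All 7 epithelial markers with a probe were well above background on all 6 arrays, as the labelled cell type would have. Of 9 neuronal markers with a probe, 6 were well above background on all arrays, whereas ELAVL3, ELAVL4 and NCAM1 were so on none.

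The member with a large difference between the cultures was BASP1, a myristoylated protein of growth cones. With probe 1, its signal was 27.8, 30.5 and 43.7 intensity units in single culture replicates 1, 2 and 3, and 426, 480 and 331 in mix culture replicates 1, 2 and 3. With probe 2, the signal was 10.1, 10.8 and 16.2 in single culture and 156, 175 and 130 in mix culture. Each mix culture lay far above each single culture with both probes, and BASP1 was well above background on all 6 arrays. The scanner software's own error of these signals was 2.93 to 4.46 units in single culture and 33.1 to 48.0 units in mix culture for probe 1.

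The normalised log2 signal of BASP1 probe 1 was -2.44 ± 0.45 in single culture and 1.11 ± 0.27 in mix culture (mean ± SD of 3 arrays). The log2 change was 3.55 (SE 0.27, 95% interval 2.92 to 4.17), a fold of 11.7. For probe 2 the normalised log2 signal was -3.90 ± 0.47 and -0.31 ± 0.27, a log2 change of 3.59 (SE 0.27, 95% interval 2.95 to 4.22) and a fold of 12.0. The lowest mix culture exceeded the highest single culture by 2.85 for probe 1 and by 2.83 for probe 2 on the log2 scale. Within the groups, single culture replicate 3 and mix culture replicate 2 were the highest with both probes. These values were the basis on which BASP1 was chosen, so the changes and intervals are a description and support no claim about BASP1. With normexp background correction of the median spot signals (offset 50) in place of the processed signals, the log2 change was 2.37 for probe 1 and 1.69 for probe 2, with the same direction. The offset is larger than each single culture signal of both probes, and adding it shrinks the log2 change of dim probes.

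**Figure D1:**
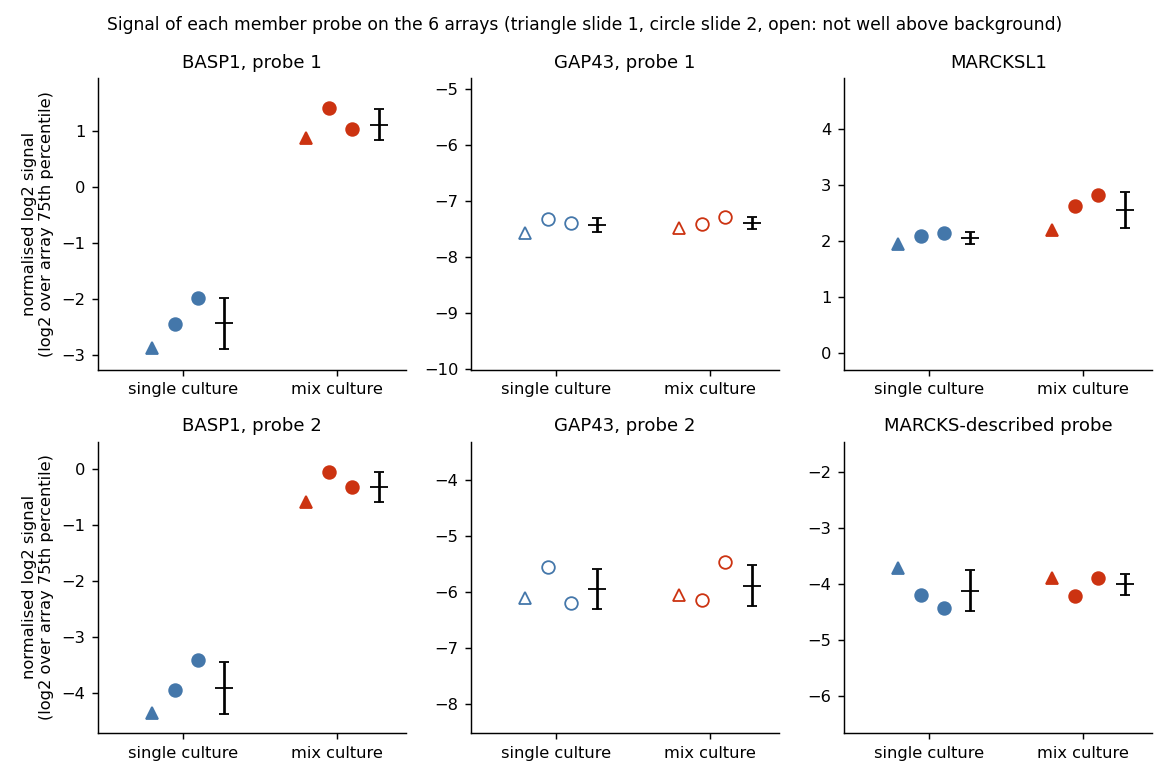
Normalised log2 signal (log2 over the 75th percentile of the array) of the 6 probes on each array, in panels that each span 5.2 log2 units, with single culture in blue and mix culture in red; triangles are slide 1, circles are slide 2, open symbols were not well above background, and bars are the mean ± SD of 3 arrays. BASP1 separates the groups by 2.85 and 2.83, MARCKSL1 by 0.06, and the other probes overlap.

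Ranked by log2 change among all 26623 tested probes, the BASP1 probes were 42nd and 38th. Tests were run on probes that were well above background in all 3 replicates of either culture, and a probe was called when limma gave an adjusted p under 0.05. Of the 5 member probes 3 were tested, and both BASP1 probes were called, against 0.815% of all tested probes called higher in mix culture and 0.883% called in either direction. Since this comparison chose the genes, nothing is read from that count. All 3 tested member probes had every mix culture above every single culture, which held for 7.85% of the tested probes.

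The difference in BASP1 was present on each slide. On slide 1, with 1 array per group, the log2 change was 3.76 for probe 1 and 3.77 for probe 2. On slide 2, with 2 arrays per group, it was 3.44 and 3.50. With the slide as a block the log2 change stayed at 3.55 for probe 1 and its SE was 0.16, with a 95% interval of 3.16 to 3.93. The change on slide 2 minus that on slide 1 was -0.32 for probe 1 (95% interval -1.13 to 0.49, limma adjusted p = 0.816), a model added after the values were seen. With 6 arrays a difference of that size between the slides was not detectable.

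Between slides, a contrast that did not enter the choice of genes, BASP1 differed as many probes did. With the culture held constant, its normalised log2 signal was higher on slide 2 than on slide 1 by 0.51 for probe 1 (limma adjusted p = 0.0432) and by 0.54 for probe 2 (limma adjusted p = 0.0337). Slide 2 was higher in both cultures. limma called 47.2% of all tested probes as differing between the slides, so this was not particular to BASP1.

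**Figure D2:**
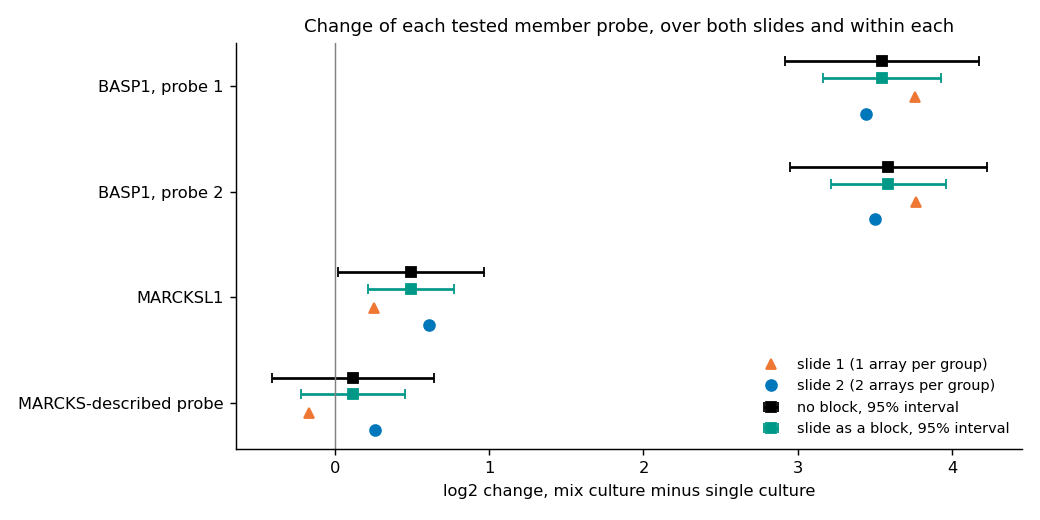
Log2 change (mix culture minus single culture) of the 4 tested probes, with squares for the fit over both slides without a block (black) and with the slide as a block (green), each with its 95% interval, triangles for slide 1 and circles for slide 2. Both BASP1 probes lie above 3.4 on each slide, whereas the MARCKS-described probe lies at -0.17 on slide 1 and 0.26 on slide 2.

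GAP43, a substrate of protein kinase C found in growing axons, was well above background on 0 of the 6 arrays with either probe. For probe 1 the signal was 1.09, 1.04 and 1.03 in single culture replicates 1 to 3, and 1.30, 1.07 and 1.04 in mix culture. For probe 2 it was 2.98, 3.58 and 2.37 in single culture, and 3.52, 2.55 and 3.67 in mix culture. The lowest signal of any probe well above background was 4.19 to 4.48 on these arrays, so every GAP43 value lay below it. GAP43 was not tested, no fold is given, and a level below this limit was not detectable. The junction probe and the single-block probe thus gave the same reading.

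MARCKSL1, a myristoylated relative of MARCKS with the same basic stretch, gave bright signals in both cultures. They were 794, 712 and 765 units in single culture replicates 1 to 3, and 1073, 1124 and 1149 in mix culture. The groups did not overlap after normalisation, but the lowest mix culture exceeded the highest single culture by only 0.06 on the log2 scale. The normalised log2 signal was 2.06 ± 0.10 in single culture and 2.56 ± 0.32 in mix culture (mean ± SD of 3 arrays).

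For MARCKSL1 the log2 change was 0.49 (SE 0.20, 95% interval 0.02 to 0.96), a fold of 1.41, and the probe was not called. The change was 0.25 on slide 1 and 0.61 on slide 2. With the slide as a block the log2 change was 0.49 with an SE of 0.12 and a 95% interval of 0.21 to 0.77, again without a call among all probes. The authors' own value table, which is centred within each slide, gave 0.52, and there the probe was called. The fit of that table held no slide term, so its SE (0.10, against 0.12 with the slide block) does not count the centring.

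The MARCKS-described probe was dim but well above background on all 6 arrays. Its signal was 15.5, 9.07 and 7.94 units in single culture replicates 1 to 3, and 15.7, 9.69 and 10.8 in mix culture. The groups overlapped, and replicate 1 was the highest of each culture in signal. Its normalised log2 signal was -4.12 ± 0.36 in single culture and -4.01 ± 0.19 in mix culture, a log2 change of 0.12 (SE 0.22, 95% interval -0.41 to 0.64). The sign was not stable. It was negative on slide 1, at -0.17, and positive on slide 2, at 0.26, and it was -0.04 without single culture replicate 3 and -0.02 with the normexp correction. The interval leaves out a change as large as that of BASP1 but leaves in a fold of up to 1.56.

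Other reporters near the member probes were read for comparison. The window of 100 kb on either side was chosen after the data were seen. Near BASP1 there was 1 probe, named by an identifier only, 27142 bases away on the minus strand, which was well above background on 0 arrays. Near GAP43 there was also 1, for the adhesion molecule LSAMP, and it too was not well above background. Near MARCKSL1 there were 20 probes, of which 14 were tested and 0 were called with or without the slide as a block. The closest of them, 356 bases away on the opposite strand, reported HDAC1, a histone deacetylase, with a log2 change of 0.04 (limma adjusted p = 0.991). Near the MARCKS-described probe 2 of 6 probes were tested and 0 were called.

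The genes whose normalised log2 signal followed BASP1 most closely over the 6 arrays were HERC6, CDKN2AIP, PARP14, MX2 and PHYHIPL. They were the 5 with the highest Pearson r to the mean of the BASP1 probes among 10198 symbols that had a probe well above background on all 6 arrays. Their r ranged from 0.987 for PHYHIPL to 0.9999 for HERC6. The arrays share slides and the difference between cultures, so these values are a description over 6 points. HERC6, PARP14 and MX2 are known interferon-induced genes, whereas CDKN2AIP encodes a regulator of p53 and ARF.

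The sizes of these changes differed widely. The log2 change was 1.51 for HERC6 (SE 0.17), 1.73 for PARP14 (SE 0.18), 4.68 for MX2 (SE 0.32), 1.60 for PHYHIPL (SE 0.15) and 0.56 for CDKN2AIP (SE 0.14). These genes were picked to follow BASP1, which fixes the direction and favours a like order of the arrays, so no test is given. The BASP1 probes themselves had an r of 0.9998 with each other. Like BASP1, HERC6 was highest in replicate 3 among the single cultures and in replicate 2 among the mix cultures, whereas MX2 was highest in replicate 2 of both.

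**Figure D3:**
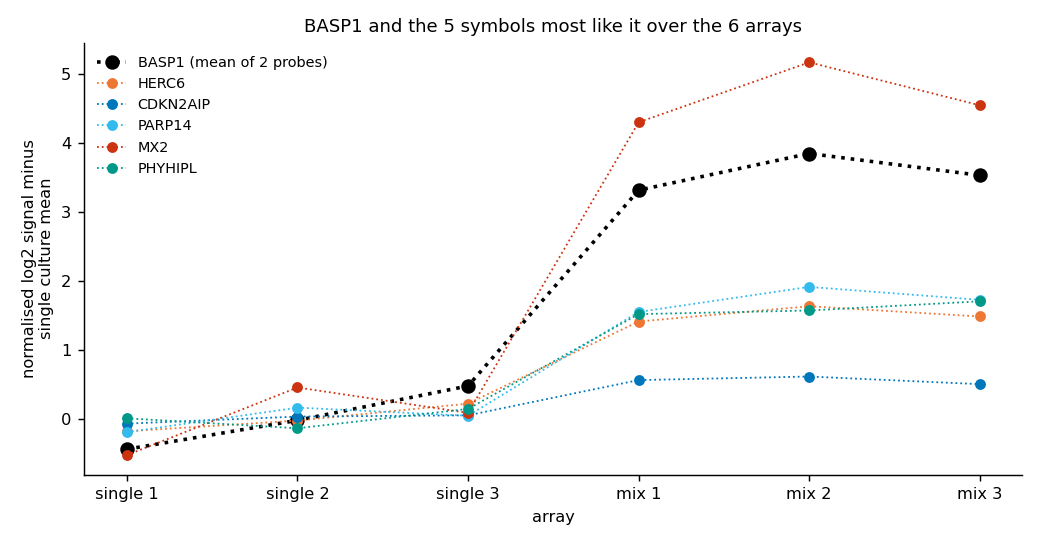
Normalised log2 signal on each of the 6 arrays, as the difference from the mean of the 3 single cultures, for BASP1 (black, mean of 2 probes) and the 5 symbols with the highest Pearson r to it. MX2 lies above BASP1 in each mix culture and the other 4 lie below it, with CDKN2AIP closest to 0.

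Genes that act on or beside this family were described with lists written by hand. They held 112 genes, of which 96 had a named probe and 77 were tested, each by its brightest probe. limma called 0 of the 77, of which 9 had an unadjusted p under 0.05, and the methods' t-test also called 0, with 15 at an unadjusted p under 0.05. Over all tested probes, not only the brightest of each gene, 8.71% had an unadjusted limma p under 0.05 and 0.883% were called. The limma counts of the lists without a block lay near these shares. The share of all tested probes at an unadjusted t-test p under 0.05 was not computed, so nothing is read from the 15. By sign, 26 had a positive and 51 a negative log2 change, while the median over all tested probes was -0.05. The share of negative changes over all tested probes was not computed, so nothing is read from the signs. With the slide as a block, limma called 9 of the 77, 1 higher and 8 lower in mix culture. Among the 26623 tested probes 7.20% were called with the block, 1060 higher and 857 lower. The lists were written with earlier results of these data known and used 1 probe per gene. Nothing is therefore read from the direction of their calls, which was not tested against that of all probes. The median of a list and its range are given below as a description of these genes.

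Protein kinase C phosphorylates the basic stretch of MARCKS, MARCKSL1 and GAP43. Of 9 isoform genes 4 were tested and 0 were called, with log2 changes from -0.16 to 0.09 and a median of -0.13. The brightest were PRKCZ, with a change of -0.16 (SE 0.14), and PRKCI, with -0.15 (SE 0.30), both atypical isoforms. Of the 3 PRKCI probes 2 had a positive change, the highest 0.28, so the sign for PRKCI depended on the probe. The classical isoforms PRKCA and PRKCB were among the 4 with a probe that were not tested.

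Calmodulin binds the same stretch, and calcineurin is a phosphatase that calmodulin activates. The calmodulin genes had no named probe. The 3 calcineurin catalytic subunits were tested and 0 were called, with PPP3CB at -0.46 (SE 0.21), PPP3CC at -0.37 (SE 0.16) and PPP3CA at -0.01 (SE 0.19). All lay below 0 by sign, and the 95% interval of each held 0. The slide block gave intervals below 0 for PPP3CB (-0.75 to -0.16) and PPP3CC (-0.61 to -0.13), again with 0 of the 3 called. The authors' table called both, in a fit that did not count its centring within each slide. These values are those of the brightest probe of each gene. The dimmer PPP3CC probe was at -0.05, and the 3 PPP3CB probes ran from -0.46 to -0.195.

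The lipid PIP2 is made by phosphoinositide kinases and is split by phospholipase C. Of 29 such genes 19 were tested and 0 were called. Their log2 changes ran from -0.47 for the phospholipase PLCD1 to 0.43 for the kinase PIP5K1C, with a median of 0.05. The brightest were PIP5K1A, a kinase that makes PIP2, at -0.16 (SE 0.32), and INPP5B, a phosphatase that removes it, at 0.05 (SE 0.16).

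The membrane anchors are added by N-myristoyltransferases and by palmitoyltransferases of the ZDHHC family. All 17 genes of this list with a probe were tested and 0 were called, with a median log2 change of -0.08. The brightest, the palmitoyltransferases ZDHHC8 and ZDHHC7, both had a change of -0.23 (SE 0.25 and 0.19). Under the slide block 2 were called lower. They were NMT2, a myristoyltransferase, at -0.57 (adjusted p = 0.0193 with the slide block, 0.502 without it), and ZDHHC2, which palmitoylates neuronal proteins, at -0.52 (adjusted p = 0.0369 with the block, 0.317 without it). The dimmer NMT2 probe was at -0.34 and was not called (limma adjusted p = 0.0839 with the block). The other myristoyltransferase, NMT1, had a change of -0.06 (SE 0.24).

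Related substrates of protein kinase C and calmodulin-binding proteins moved in both directions. The brightest of the 5 tested, ADD3, an adducin of the membrane skeleton, had a log2 change of 0.06 (SE 0.26), and NRGN, a neuronal calmodulin-binding protein, of -0.57 (SE 0.19), and 0 were called. With the slide as a block AKAP12, a myristoylated scaffold that binds protein kinases, was called higher at 0.75 (adjusted p = 0.0203). Its normalised log2 signal was -0.09, -0.77 and -0.55 in single culture and 0.29, 0.25 and 0.29 in mix culture. The groups did not overlap, and 7.85% of all tested probes likewise had every mix culture above every single culture. All 4 tested AKAP12 probes had a positive change, from 0.55 to 0.75, and 2 of them were called with the slide as a block. The adducin ADD2 at -0.64 (adjusted p = 0.0278) and NRGN (adjusted p = 0.0337) were called lower with the slide as a block, although the 4 NRGN probes disagreed, with changes from -2.01 to 0.19. The dimmer ADD2 probe was at -0.67 and was not called (limma adjusted p = 0.11 with the block).

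In the nucleus BASP1 acts with WT1, prohibitin and HDAC1. WT1 was not tested. Prohibitin (PHB) had a log2 change of -0.27 (SE 0.19), its partner PHB2 of -0.05 (SE 0.38) and HDAC1 of 0.35 (SE 0.15), and 0 of these 3 were called with or without the slide as a block. The HDAC1 probes differed from each other. The value of 0.35 is that of the brighter one, 1857 bases from the MARCKSL1 probe, and the closer one had a change of 0.04.

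Of genes linked to WT1 and BASP1, ETS1 and JUNB were tested and neither was called. ETS1, a transcription factor that acts downstream of Ras signalling, had normalised log2 signals of 3.62, 3.15 and 3.23 in single culture and of 2.50, 2.19 and 2.34 in mix culture. Every mix culture lay below every single culture, and the log2 change was -0.99 (SE 0.19, limma adjusted p = 0.0821). The share of all tested probes with that lower order was not computed, so nothing is read from the order. ETS1 was called with the slide as a block (adjusted p = 0.00177), and all 3 of its probes had a negative change, from -0.99 to -0.81. JUNB, a partner in the AP-1 factor, had a change of 0.24 (SE 0.32). MYC, whose transforming activity BASP1 is known to oppose, had a change of -0.43 (SE 0.17, limma adjusted p = 0.535), and its partner MAX of -0.03 (SE 0.22). None of the 3 tested genes of the MYC family was called with or without the slide as a block.

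**Figure D4:**
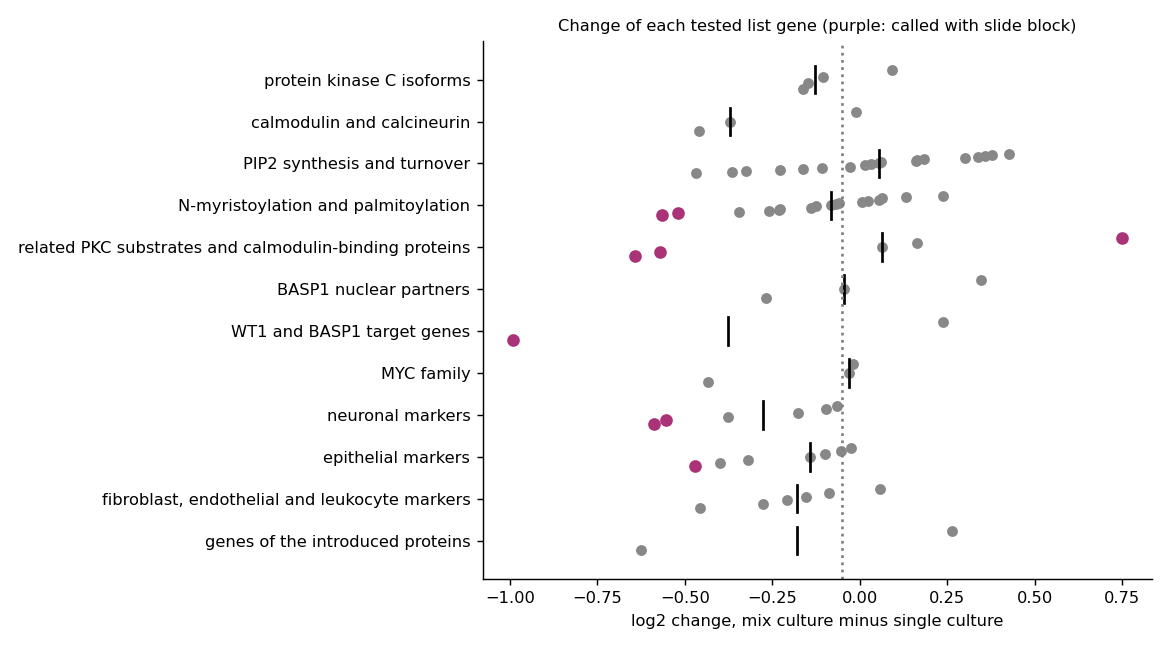
Log2 change (mix culture minus single culture) of each tested list gene, 1 point per gene by its brightest probe, with short black lines at the median of each list and a dotted line at the median of all tested probes (-0.05); purple points were called with the slide as a block. The points lie between -0.99 for ETS1 and 0.75 for AKAP12, and none was called without the block.

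Because the family is best known from neurons, markers of neurons and of other cell types were set beside BASP1. The 6 tested neuronal markers had log2 changes from -0.59 to -0.06, all negative, and 0 were called. DPYSL3, an axon guidance protein that was the brightest of them, was at -0.55 (SE 0.28) and MAP2, a dendritic microtubule protein, at -0.38 (SE 0.19) with its brightest probe. The slide block gave calls of lower level for DPYSL3 (adjusted p = 0.0245) and SYT1, a synaptic vesicle protein, at -0.59 (adjusted p = 0.0221), and for 2 of the 4 MAP2 probes, neither of them the brightest (-0.76, adjusted p = 0.0276, and -0.67, adjusted p = 0.0245). The summed level of the 9 neuronal markers with a probe, in multiples of the 75th percentile of each array, was 50.1 to 73.2 in single culture and 31.4 to 56.2 in mix culture, so the groups overlapped. DPYSL3 weighs most in this sum, with a mean normalised log2 signal of 5.70 in single culture and 5.15 in mix culture. The next brightest, MAP2, was at 1.75 and 1.37, so the sum mainly follows DPYSL3.

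The 7 epithelial markers summed to 662 to 826 in single culture and to 464 to 657 in mix culture, a gap of 657 to 662 between the groups. The brightest markers, KRT18 and KRT19, keratins of simple epithelia, weigh most in this sum and were at -0.40 (SE 0.21) and -0.32 (SE 0.33), whereas EPCAM, an epithelial adhesion molecule, was at -0.02 (SE 0.23) and TJP1, a tight junction protein, at -0.05 (SE 0.27). The adhesion receptor CDH1 (E-cadherin) was at -0.47 (adjusted p = 0.0444 with the slide as a block, 0.384 without it), and 0 of the 7 were called without the block. A second, dimmer TJP1 probe was at -0.45 (adjusted p = 0.0396 with the block). Markers of fibroblasts, endothelium and leukocytes summed to 1.60 to 2.81 in single culture and to 1.49 to 2.27 in mix culture. The leukocyte marker PTPRC was not well above background on any array, and the collagen gene COL1A2 (-0.21, SE 0.42) and the endothelial PECAM1 (-0.15, SE 0.18) were the brightest of the 7. 0 of the 3 summed levels were higher in every mix culture than in every single culture, and their part in the BASP1 difference was not tested.

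Of the genes that name the introduced proteins, the Ras gene HRAS was at -0.63 (SE 0.28, limma adjusted p = 0.608) and CTNNB1, which encodes β-catenin, at 0.26 (SE 0.25, limma adjusted p = 0.889). Neither was called with the slide as a block. Whether these probes read the introduced sequences was not tested.

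**Figure D5:**
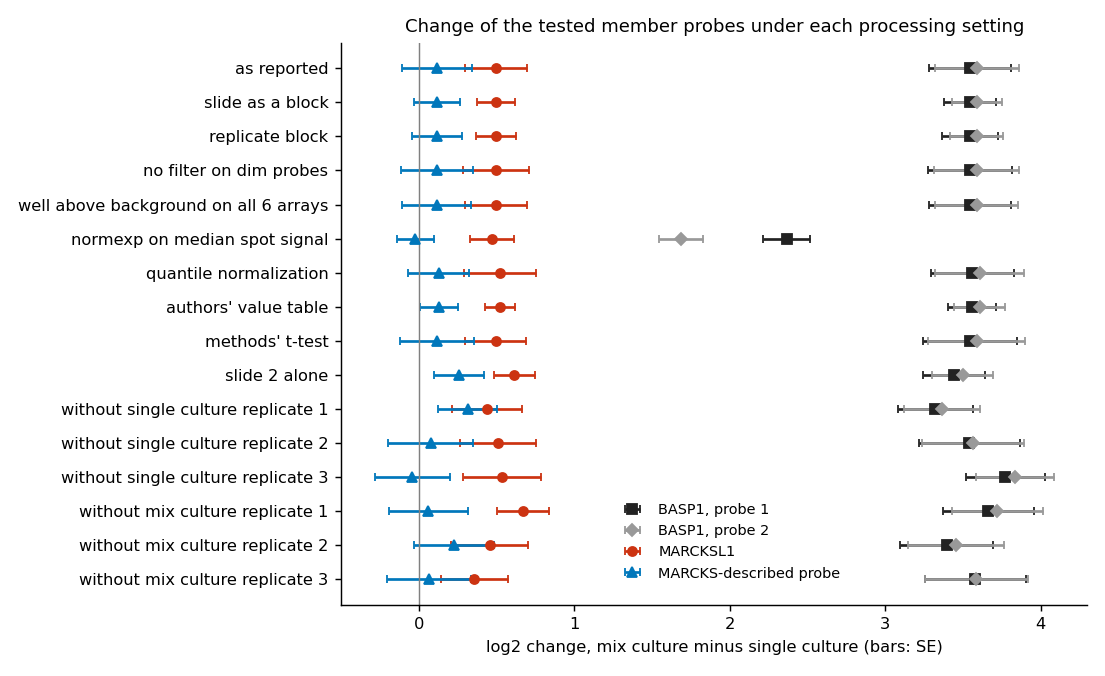
Log2 change (mix culture minus single culture) of the 4 tested probes under each way of processing the data, with bars for the SE. The BASP1 probes stay between 3.32 and 3.83 except under normexp, where they lie at 2.37 and 1.69, and MARCKSL1 stays between 0.36 and 0.67.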

How the data were processed

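Each sample's title gave its group and replicate number. The members and gene lists were chosen with earlier results of these data known. The authors deposited 1 scanner file per array with the background-subtracted intensity of its spots (linear scale), made per the file headers with Agilent Feature Extraction 11.5.1.1 (slide 1, 3 µm scans) and 12.1.1.1 (slide 2, 5 µm scans), without scaling between arrays. They also deposited a table of log2 values, whose scaling and whose centring within each slide are not described in the sources used here. The limma fit of these values held no slide term and did not count the centring, so its p-values tend to be too small. The table's columns for mix culture replicates 2 and 3 each matched the scanner values of the other replicate (r = 0.979 and 0.977, against 0.465 and 0.433 for its own), so results without either replicate may be exchanged.

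From the scanner files, spots flagged as outliers (5 to 9 per array) and control spots were left out, spots of a probe were averaged as log2, and arrays were scaled by their 75th percentile. No spot was saturated. The 26623 probes well above background in all 3 replicates of either culture were compared by lmFit and eBayes of limma 3.58.1 (R 4.3.3, two-sided, Benjamini-Hochberg adjustment over all tested probes, threshold 0.05). The fit was checked on simulated data. A gene was represented by its brightest tested probe. With 6 arrays, their number limits the precision. Symbols were those of the array design (22683 probes by the gene name column, 1096 by a bracketed symbol found in the RefSeq table of UU_Cfam_GSD_1.0), and 19824 probes carried an identifier only.

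Besides the member probes, the genes named were the called genes of each list, or, where none was called, the 2 with the brightest signal; the 5 symbols most like BASP1; and HRAS and CTNNB1. Genes named for a call with the slide block, and those at the ends of a range, were chosen after their values were seen. Over probes, deviations from the group mean were correlated between arrays of the same number (r = 0.801, 0.53 and 0.572 for replicates 1, 2 and 3). Across numbers, r was higher for replicates 2 and 3: 0.632 for single culture 3 with mix culture 2, and 0.61 for single culture 2 with mix culture 3. These values do not establish a pairing by number within slide 2, which the replicate block assumes. Alternatives were the slide or the replicate number as a block, other filters on dim probes, normexp (offset 50) on median spot and background signals, quantile normalization, the authors' table, the methods' t-test, slide 2 alone, leaving out each array and averaging the probes of a gene. Figures and sequences were made with Python 3.11.15, pandas 2.3.3 and matplotlib 3.10.9.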

Additional observations from a re-analysis of the deposited data

How the results depend on the processing

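BASP1 kept its direction under each alternative, with log2 changes of 3.32 to 3.77 for probe 1 when 1 array was left out. It lost its call under the methods' t-test (log2 change 3.55), which called 0 member probes in place of 2. MARCKSL1 stayed positive (0.36 to 0.67 with 1 array left out) and was called only in the authors' table (0.52), whose fit did not count the centring. The MARCKS-described probe turned negative with normexp (-0.0244) and without single culture replicate 3 (-0.043), and ran from -0.043 to 0.31 with 1 array left out. GAP43 was not well above background, so no alternative gives a change that can be read. With the replicate block, the log2 change of BASP1 was 3.55, that of MARCKSL1 was 0.49 and that of the MARCKS-described probe was 0.12, with no change of call. The replicate block called 6 list genes and 1399 probes, against 0 and 235 without it. Its pairing of replicates 2 and 3 by number is not established.

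The count of called list genes was 9 with the slide as a block, 1 (ETS1) with quantile normalization, 17 in the authors' table and 4 on slide 2 alone, and stayed at 0 whichever array was left out. Counts from the authors' table may be too high, because its fit did not count the centring within each slide. The count over all probes was 1917 with the slide as a block, 4077 in the authors' table, 998 on slide 2 alone, 143 when only probes above background on all 6 arrays entered, 101 with normexp, 8 with the methods' t-test and 92 to 247 with 1 array left out. It was 92 without single culture replicate 3, 92 without mix culture replicate 2 and 99 without mix culture replicate 3. The share of calls that were higher in mix culture was 92.3% as reported, 55.3% with the slide block and 47.8% in the authors' table. The cause was not tested. The dim MARCKS-described probe and GAP43 are limited by their closeness to background.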
